A study of Homo sapiens with 4 samples.

Results

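The genes examined here write, keep, remove or act beside DNA methylation in U118-MG, an established human glioma cell line. They were chosen by name: the maintenance factors UHRF1, DNMT1 and HELLS, the de novo methyltransferases DNMT3A and DNMT3B, the TET dioxygenases TET1, TET2 and TET3, the histone methyltransferase EZH2 and the repair protein MGMT, 10 genes of the 61806 in the table and of the 17853 tested. RNA was sequenced from cells infected with a lentiviral pCDH-CMV-MCS-EF1-puro vector that carries the SPNS2 cDNA (SPNS2, 2 libraries) and from cells infected with the negative control vector (NC, 2 libraries). SPNS2 carries sphingosine 1-phosphate, a lipid signal, out of cells. Both groups are labelled wild type in genotype, and both were grown in DMEM with 10% fetal bovine serum under 5% CO2. The labels do not say whether the infected cells were 1 clone or a pool, or whether a group's libraries were made from separate cultures, so the p-values measure only the spread between these libraries, which may be technical. The comparison asks how transcripts of these genes differ between the SPNS2 and the NC cells. DNA methylation itself was not measured in these libraries.

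The libraries held between 31353373 and 34125159 counts, and libraries of 1 group differed by more than counting noise. SPNS2 was counted 7381 and 8224 times in the SPNS2 libraries, against 42 and 47 times in the NC libraries, as the labels state. Of the markers of glioma or astroglial cells, VIM, CD44 and FN1 were abundant (each above 335 CPM, counts scaled by TMM to a common library size, in every library), whereas GFAP, OLIG2, SOX2 and S100B lay between 0 and 0.238 CPM. Of the 5 tested, VIM rose by 0.57 on the log2 scale (edgeR adjusted p = 0.021), CD44 and FN1 were not called, and NES and PDGFRA were lower, at -0.84 and -1.48 (edgeR adjusted p = 0.024 and 0.0011). The summed immune markers ranged over 66.5 to 76.7 CPM in the SPNS2 libraries and 111 to 130 CPM in the NC libraries, nearly all of it CD68, with PTPRC and CD3E at 0 to 0.297 CPM. CD68 fell by 0.76 (edgeR adjusted p = 0.020). The other of the 2 tested immune markers had a positive log2 fold change and was not called, and the median of the 2 was 0.73. The endothelial, epithelial and neuronal marker sums were at most 6.83, 0.42 and 19.9 CPM, with RBFOX3 at 0 and CDH5 at 0 to 0.0936 CPM. Within these sums PECAM1 and SNAP25 rose by 1.07 and 1.87 (edgeR adjusted p = 0.046 and 0.040), and SYT1 had a log2 fold change of -2.63 (edgeR adjusted p = 0.0027). VWF had a log2 fold change of -2.66, given with no test, since it may have passed the filter on low counts through the NC group alone. The part of these differences in the results was not tested. Where a gene was lower, fewer cells that express it and less RNA per cell cannot be told apart.

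In mammals, DNMT3A and DNMT3B place methyl groups on cytosines of CpG dinucleotides. At replication UHRF1 binds the hemimethylated DNA and brings in DNMT1, which copies the mark to the new strand, and the chromatin remodeller HELLS opens packed regions for this step. TET enzymes oxidise 5-methylcytosine, and the base excision enzyme TDG can then remove some of the oxidised forms. EZH2 is the catalytic subunit of Polycomb repressive complex 2 (PRC2), which methylates lysine 27 of histone H3 (H3K27). MGMT takes alkyl groups off guanine, and methylation of its promoter is used in glioma care as a marker of response to temozolomide.

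The TET genes were the members whose SPNS2 libraries all lay below the NC libraries. TET2 and TET3 fell, TET1 had the lowest fold change but did not pass the test, and none of the other 7 members was called. By edgeR's quasi-likelihood test with Benjamini-Hochberg adjustment over all tested genes, 2 of the 10 members were called lower and 0 higher at an adjusted p under 0.05. Over all tested genes 23.4% were called, 11.3% lower and 12.1% higher, so the members' share of calls, 20% in all, lay near the background. At an unadjusted p under 0.05, 3 members were lower and 2 higher, beside 3371 lower and 3400 higher of all 17853 tested genes. DESeq2 called 3 members lower and limma-voom 2, and both called 0 members higher. The median log2 fold change of the members was 0.063, against -0.0085 over all tested genes. The groups did not overlap at TET1, TET2, TET3, DNMT1, HELLS and EZH2, beside 66% of all tested genes.

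**Figure D1:**
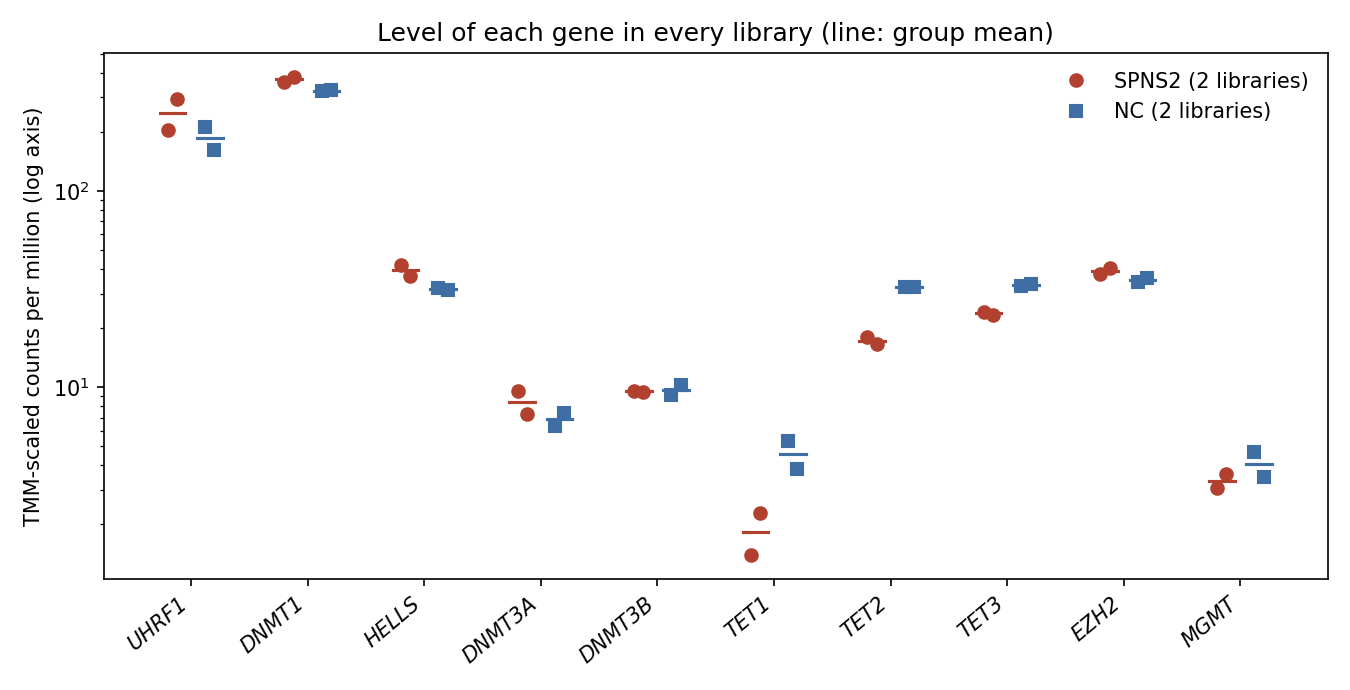
TMM-scaled counts (CPM, log axis) of the 10 genes, with 1 point per library and a line at each group mean, SPNS2 in red circles and NC in blue squares. The SPNS2 points of TET1, TET2 and TET3 all lie below the NC points, while the points of UHRF1, DNMT3A, DNMT3B and MGMT overlap between the groups.

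The promoters of the TET genes are printed because the SPNS2 libraries of these members all lay below the NC libraries. Each is the most upstream RefSeq start, from 250 bases before it to 50 bases after it, in lower case with every CpG in capitals. All 10 members matched the RefSeq promoter table by symbol.
TET1 (GRCh38.p14, chr10:68560087-68560386, plus strand): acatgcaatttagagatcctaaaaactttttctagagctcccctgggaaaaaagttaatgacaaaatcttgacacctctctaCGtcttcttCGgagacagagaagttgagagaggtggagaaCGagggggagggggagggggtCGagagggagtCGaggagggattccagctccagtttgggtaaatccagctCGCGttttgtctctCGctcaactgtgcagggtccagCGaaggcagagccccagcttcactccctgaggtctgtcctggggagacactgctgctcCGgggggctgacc
TET2 (GRCh38.p14, chr4:105145625-105145924, plus strand): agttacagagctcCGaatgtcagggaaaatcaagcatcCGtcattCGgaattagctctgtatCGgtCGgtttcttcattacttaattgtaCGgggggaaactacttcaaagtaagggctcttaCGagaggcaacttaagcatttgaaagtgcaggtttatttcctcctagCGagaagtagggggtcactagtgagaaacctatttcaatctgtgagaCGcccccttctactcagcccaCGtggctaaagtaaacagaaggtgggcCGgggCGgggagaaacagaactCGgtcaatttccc
TET3 (GRCh38.p14, chr2:73984660-73984959, plus strand): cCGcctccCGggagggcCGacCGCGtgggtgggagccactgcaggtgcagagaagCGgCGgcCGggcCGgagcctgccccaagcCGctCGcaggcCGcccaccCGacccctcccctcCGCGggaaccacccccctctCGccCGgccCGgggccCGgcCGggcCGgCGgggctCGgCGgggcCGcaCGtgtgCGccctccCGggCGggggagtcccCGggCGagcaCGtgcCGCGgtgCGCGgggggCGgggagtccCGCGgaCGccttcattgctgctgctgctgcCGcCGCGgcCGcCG

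The windows differ in CpG content: TET1 has 10 CpG, TET2 13 and TET3 45. Among the 35116 promoter windows of the same length in the table, 56.4% hold at least as many CpG as TET1, 51.7% as many as TET2 and 3.48% as many as TET3. Each gene has at least 1 other RefSeq start downstream, and the second TET2 window holds 35 CpG.

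TET2 (ENSG00000168769, chromosome 4, 105145875 to 105279816 on hg38) encodes a TET enzyme without the CXXC domain of TET1 and TET3. It was counted 554 and 552 times in the SPNS2 libraries, against 1038 and 1086 times in the NC libraries, which is 17.3 ± 1.03 CPM in SPNS2 and 32.3 ± 0.075 CPM in NC (SD, n = 2 each). Both SPNS2 libraries were lower than both NC libraries, and the libraries within a group lay close together. Its log2 fold change was -0.90 (SE 0.10, 95% interval -1.18 to -0.63, edgeR adjusted p = 0.0094), a level 1.87-fold lower, and TET2 was called in all 14 alternative settings. The antisense gene TET2-AS1 had no counts in any library. TET2 lies on 4q, where the median over 436 tested genes was -0.32, and of the 39 tested neighbours within 5 Mb 13 were called lower and 2 higher, and 10 had a lower log2 fold change than TET2. With the arm medians taken out, TET2 was at -0.58 (edgeR adjusted p = 0.029).

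TET3 (ENSG00000187605, chromosome 2, 73986404 to 74108176), known in the mouse for oxidising the paternal genome of the zygote, was at 24.2 and 23.3 CPM in the SPNS2 libraries, against 32.9 and 33.5 CPM in the NC libraries. The groups were apart by several times the difference within either group. TET3 differed by -0.48 on the log2 scale (SE 0.094, 95% interval -0.73 to -0.23, edgeR adjusted p = 0.031), a level 1.40-fold lower. The call of TET3 was lost without SPNS2 replicate 1 (edgeR adjusted p = 0.097), without SPNS2 replicate 2 (0.11), without NC replicate 1 (0.105), without NC replicate 2 (0.116), with the replicate number as a block (0.084) and with the median of its arm, -0.17 on 2p, taken out (log2 fold change -0.31, adjusted p = 0.092). Over the fits that left out a library its log2 fold change lay between -0.49 and -0.45. Of its 85 tested neighbours within 5 Mb 12 were called lower and 6 higher, and 22 had a lower log2 fold change.

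TET1 (ENSG00000138336, chromosome 10, 68560656 to 68694482) is known for high levels in embryonic stem cells. It was counted 43 and 76 times in the SPNS2 libraries, against 171 and 129 times in the NC libraries, which is 1.40 and 2.28 CPM in SPNS2 against 5.33 and 3.83 CPM in NC. The exact 95% counting intervals were 31.1 to 57.9 and 59.9 to 95.1 counts in SPNS2, and 146 to 199 and 108 to 153 counts in NC, and they cover counting error only. The intervals of both SPNS2 libraries lie below those of both NC libraries. They are not scaled for library size, so they do not settle whether the libraries within a group differ. The log2 fold change of -1.31 (SE 0.35, 95% interval -2.25 to -0.38) did not pass the test (edgeR adjusted p = 0.063), and TET1 was called by DESeq2 (adjusted p = 0.021) and in none of the other 13 alternatives. Leaving out SPNS2 replicate 2 gave -1.71 and leaving out SPNS2 replicate 1 gave -0.99, the ends of the range over these fits. TET1 lies on 10q, an arm with a median of -0.24, and 9 of its 66 tested neighbours within 5 Mb had a lower log2 fold change.

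Per length, TET transcripts summed to 3.22 and 3.15 CPM per kb of exon in the SPNS2 libraries, against 5.22 and 5.10 CPM per kb in the NC libraries. This is 3.18 ± 0.048 in SPNS2 and 5.16 ± 0.087 in NC (SD, n = 2 each), 1.62-fold lower. TET3 made up 60.9% ± 0.74 of the sum in SPNS2 and 52.4% ± 1.5 in NC, TET2 32.9% ± 1.46 in SPNS2 and 38.0% ± 0.55 in NC, and TET1 6.23% ± 2.2 in SPNS2 and 9.55% ± 2.05 in NC. The methyltransferases DNMT1, DNMT3A and DNMT3B summed to 39.6 and 41.5 CPM per kb in SPNS2 libraries and 35.5 and 36.1 CPM per kb in NC libraries, of which DNMT1 made 93.2% in SPNS2 and 92.5% in NC. The ratio of the DNMT sum to the TET sum, which does not depend on library scaling, was 12.3 and 13.2 in the SPNS2 libraries, against 6.80 and 7.08 in the NC libraries. It was 1.84 times as high in SPNS2, and with a library left out 1.77 to 1.90 times. The shares and the ratio depend on the union exon lengths, which are at least as long as any single transcript. These sums were formed with the members' values known and carry no p.

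**Figure D2:**
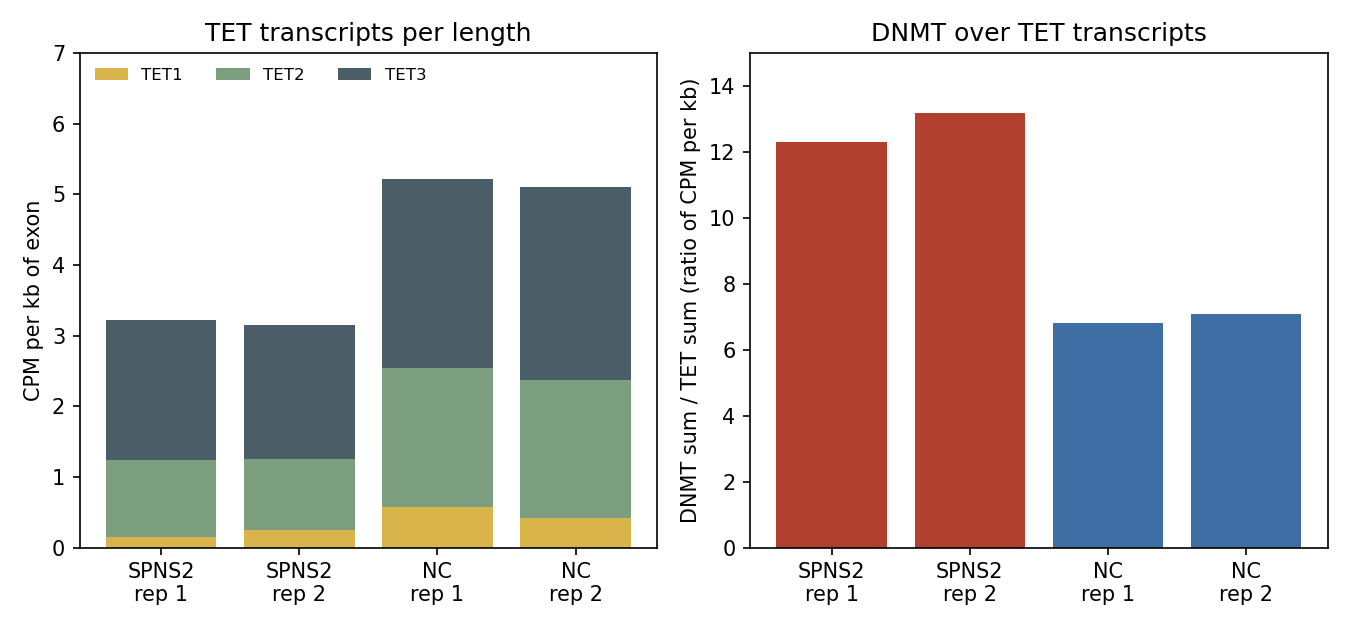
Left, TET1, TET2 and TET3 stacked per library in CPM per kb of exon; right, the ratio of the DNMT sum to the TET sum per library. The stacks reach 3.22 and 3.15 in SPNS2 against 5.22 and 5.10 in NC, and the ratios 12.3 and 13.2 in SPNS2 against 6.80 and 7.08 in NC.

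UHRF1 and DNMT1 were the most abundant members per length, and none of the 3 maintenance factors passed the test. UHRF1 (ENSG00000276043, chromosome 19, 4903080 to 4962154) was at 205 and 295 CPM in the SPNS2 libraries, against 212 and 162 CPM in the NC libraries. The groups overlapped, since the first SPNS2 library lay below the first NC library. The difference was 0.42 on the log2 scale (SE 0.22, 95% interval -0.18 to 1.02, edgeR adjusted p = 0.25). It was 0.14 when SPNS2 replicate 2 was left out and 0.67 when SPNS2 replicate 1 was. Of 979 tested genes with a mean level within 1.5-fold of that of UHRF1, 1.94% differed at least as much between the libraries of each group. UHRF1 transcripts were in excess of DNMT1 transcripts per length in 3 of the 4 libraries, with ratios of 1.08 and 1.47 in SPNS2 and 1.25 and 0.947 in NC. This excess depends on the union exon lengths used, 5145 bases for UHRF1 and 9796 for DNMT1. In CPM, DNMT1 stood above UHRF1 in all 4 libraries.

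DNMT1 (ENSG00000130816, chromosome 19, 10133345 to 10231286) was at 360 and 381 CPM in the SPNS2 libraries, against 323 and 326 CPM in the NC libraries. Both SPNS2 libraries were higher than both NC libraries, by a log2 fold change of 0.19 (SE 0.054, 95% interval 0.047 to 0.34), which did not pass the adjusted test (edgeR adjusted p = 0.072). It was called in 0 of the 14 alternatives. DNMT1 shares 83 exon bases on the same strand with S1PR2, a sphingosine 1-phosphate receptor gene that overlaps its upstream end. S1PR2 was counted 479 and 548 times in SPNS2 and 878 and 982 times in NC, against 10366 to 12704 counts of DNMT1 in each library. How reads on the shared bases were assigned is not given in the sources used here.

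HELLS (ENSG00000119969, chromosome 10, 94501434 to 94613905) was at 41.8 and 37.1 CPM in the SPNS2 libraries, against 31.9 and 31.2 CPM in the NC libraries. The groups did not overlap, but the log2 fold change of 0.32 (SE 0.10, 95% interval 0.047 to 0.60) did not pass the test (edgeR adjusted p = 0.094). HELLS had the opposite sign to the median of its arm, -0.24 on 10q, and with arm medians taken out HELLS was called at 0.56 (adjusted p = 0.031). An overlapping gene on the same strand, ENSG00000244332, shares 438 exon bases with it and had 31 to 48 counts in each library.

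The de novo methyltransferases DNMT3A and DNMT3B lay far below DNMT1 in CPM. Their mean CPM stood at percentiles 40.6 and 43.3 of the tested genes, and that of DNMT1 at 97.7. DNMT3A (ENSG00000119772, chromosome 2, 25227855 to 25342590) was at 9.55 and 7.31 CPM in the SPNS2 libraries, against 6.33 and 7.37 CPM in the NC libraries. The groups overlapped narrowly, with a log2 fold change of 0.30 (SE 0.21, 95% interval -0.26 to 0.86, edgeR adjusted p = 0.37). DNMT3B (ENSG00000088305, chromosome 20, 32762385 to 32809356) was at 9.55 and 9.50 CPM in the SPNS2 libraries, between the 9.14 and 10.3 CPM of the NC libraries. Its log2 fold change was -0.030 (SE 0.15, 95% interval -0.43 to 0.36, edgeR adjusted p = 0.91), and it changed sign, to 0.057, without NC replicate 2. DNMT3L, the catalytically inactive partner of both enzymes in germ cells, had no counts in any library.

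EZH2 (ENSG00000106462, chromosome 7, 148807383 to 148884321) was at 37.8 and 40.6 CPM in the SPNS2 libraries, against 34.4 and 35.99 CPM in the NC libraries. The groups did not overlap, and the log2 fold change of 0.16 (SE 0.092, 95% interval -0.090 to 0.40) did not pass the test (edgeR adjusted p = 0.29). The interval leaves room for a level up to 0.40 higher on the log2 scale. The pseudogene EZH2P1 had 0 to 2 counts in each library.

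MGMT (ENSG00000170430, chromosome 10, 129467184 to 129768007) was detected at a low level in all 4 libraries. It was counted 94 and 120 times in the SPNS2 libraries, against 150 and 117 times in the NC libraries, which is 3.05 and 3.60 CPM in SPNS2 against 4.68 and 3.48 CPM in NC. The second SPNS2 library lay above the second NC library, so the groups overlapped. MGMT differed by -0.29 on the log2 scale (SE 0.25, 95% interval -0.97 to 0.38, edgeR adjusted p = 0.46). Leaving out NC replicate 2 gave -0.49 and leaving out NC replicate 1 gave -0.064, and at this depth no difference was detectable. With the median of 10q taken out it was -0.057. The RefSeq promoter window of MGMT holds 45 CpG, as many as that of TET3.

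**Figure D3:**
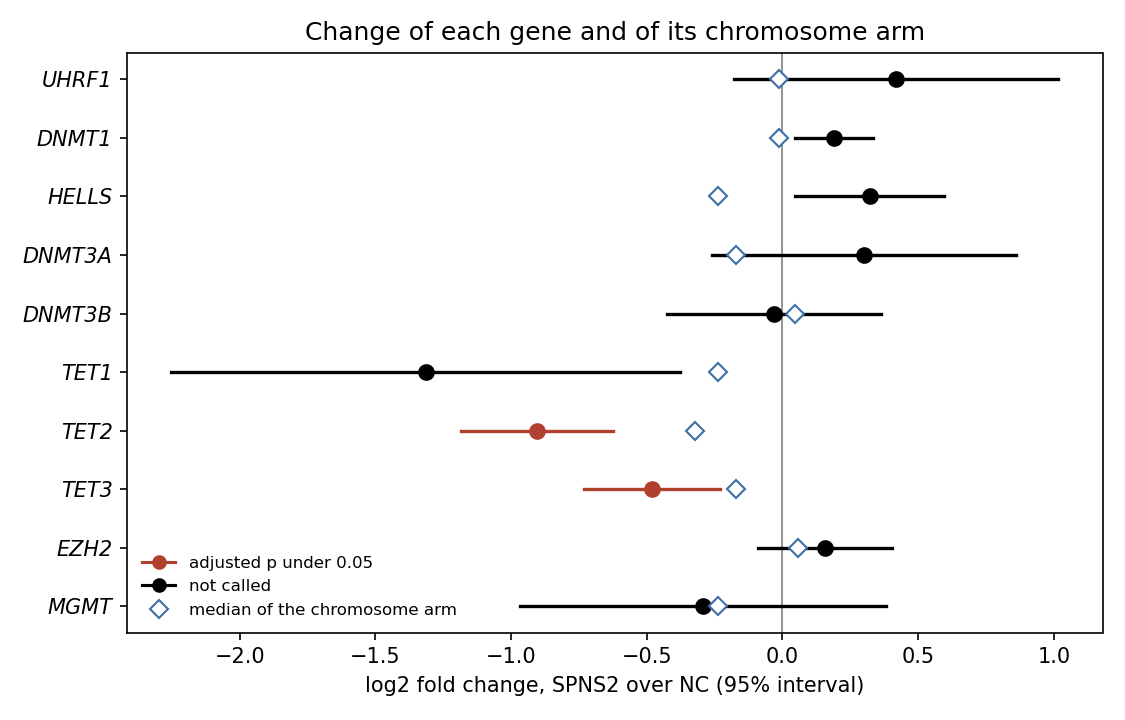
The log2 fold change of each gene, SPNS2 over NC, with its 95% interval, in red where the adjusted p was under 0.05, and an open diamond at the median log2 fold change of the tested genes on the same chromosome arm. TET2 and TET3 are red at -0.90 and -0.48, TET1 lies lowest at -1.31 with the widest interval, and the arms of TET2, TET1, HELLS and MGMT have medians of -0.32 and -0.24.

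Per length the order of the members was nearly the same in both groups, though the order within a group depends on the union exon lengths used. In SPNS2 it ran from UHRF1 (48.6 ± 12.3 CPM per kb) and DNMT1 (37.8 ± 1.49) over EZH2 (8.67 ± 0.44) and HELLS (3.89 ± 0.33) to DNMT3B (2.06 ± 0.0076) and TET3 (1.94 ± 0.053), then TET2 (1.05 ± 0.062), MGMT (0.935 ± 0.108), DNMT3A (0.702 ± 0.132) and TET1 (0.198 ± 0.067). In NC it ran from UHRF1 (36.3 ± 6.89) and DNMT1 (33.1 ± 0.165) over EZH2 (7.78 ± 0.252), HELLS (3.11 ± 0.049) and TET3 (2.70 ± 0.032) to DNMT3B (2.10 ± 0.179) and TET2 (1.96 ± 0.0046), then MGMT (1.15 ± 0.239), DNMT3A (0.57 ± 0.061) and TET1 (0.494 ± 0.114), each as mean ± SD with n = 2. Per length, UHRF1 and DNMT1 did not differ beyond their spread in either group. The same holds for TET2 and MGMT in SPNS2, for DNMT3B and TET2 in NC, and for DNMT3A and TET1 in NC. TET3 stood above DNMT3B in NC and TET2 beside it, whereas in SPNS2 both stood below it.

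UHRF1, DNMT1, HELLS and EZH2 are known targets of E2F factors, which drive genes of the S phase, so the members' promoters were searched for the E2F-type letters TTTCCCGC, TTTCGCGC, TTTGCCGC and TTTGGCGC on both strands, with overlapping matches counted. These 4 members held a match within the RefSeq windows and the other 6 held none. The only DNMT3B window is at a start at 32779852, downstream of the gene start at 32762385 given above. The upstream end of DNMT3B was therefore not searched. Of all 35116 windows 3.31% held a match, and of all 27305 genes 3.99% had one in any of their windows. Among the S phase genes of the list below, 14 of the 28 matched genes had one. Each match is shown, 5′ to 3′ on the gene's strand, with the matched letters in capitals and 16 bases on each side.
UHRF1, first start: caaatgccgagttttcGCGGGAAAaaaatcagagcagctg
UHRF1, second start: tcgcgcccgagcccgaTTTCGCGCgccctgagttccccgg
DNMT1: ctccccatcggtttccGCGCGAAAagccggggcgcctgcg
HELLS, first match: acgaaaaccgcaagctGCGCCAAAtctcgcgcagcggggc
HELLS, second match: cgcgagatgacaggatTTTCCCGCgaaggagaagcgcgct
EZH2: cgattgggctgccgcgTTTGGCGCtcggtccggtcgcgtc

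On GRCh38.p14 the windows are chr19:4909471-4909510 and chr19:4909968-4910007 (plus strand) for UHRF1, chr19:10194932-10194971 (minus strand) for DNMT1, chr10:94545696-94545735 and chr10:94545764-94545803 (plus strand) for HELLS and chr7:148884267-148884306 (minus strand) for EZH2. The match is a description of letters and shows no binding. Of the 32 S phase genes, 11 were called higher and 1 lower, 34.4% higher beside 12.1% of all tested genes, with a median log2 fold change of 0.23. MCM7, a subunit of the replicative helicase, rose to 286 and 310 CPM in SPNS2, against 189 and 189 CPM in NC (log2 fold change 0.66, SE 0.063, edgeR adjusted p = 0.0061), and the licensing factor CDC6 rose by 0.67 (SE 0.065, edgeR adjusted p = 0.0063). The ribonucleotide reductase subunit RRM1 and the helicase subunit MCM4 rose by 0.46 and 0.43 (edgeR adjusted p = 0.013 and 0.014). Of the members with a match, UHRF1, DNMT1, HELLS and EZH2 had positive values of 0.42, 0.19, 0.32 and 0.16 and none was called. With a library left out, 2 to 6 S phase genes were called higher: 6 without SPNS2 replicate 1, 3 without SPNS2 replicate 2, 2 without NC replicate 1 and 3 without NC replicate 2. MCM7 and CDC6 were called in each of these fits, RRM1 was lost without SPNS2 replicate 2 or NC replicate 1, and MCM4 without NC replicate 1 or 2. With the replicate block 4 were called higher, beside 1039 of all 17853 tested genes. Leaving out a library also cut the calls over all genes, so those fits do not show whether the main fit's excess held. The part of the S phase genes in the members' values was not tested.

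Of the 18 partners of writing and maintenance, 15 were tested, 4 were called higher, 1 lower and 10 neither, with a median of 0.14. These are 26.7% higher and 6.67% lower, beside 12.1% and 11.3% of all tested genes. TRIM28, a corepressor that recruits silencing enzymes to retroelements, rose to 287 and 294 CPM in SPNS2, against 216 and 218 CPM in NC (log2 fold change 0.42, SE 0.051, edgeR adjusted p = 0.011). LIG1, the DNA ligase of Okazaki fragments and a binding partner of UHRF1, rose to 52.3 and 51.9 CPM in SPNS2, against 34.5 and 36.05 CPM in NC (0.56, edgeR adjusted p = 0.015). EHMT2, the H3K9 methyltransferase G9a, rose by 0.28 (edgeR adjusted p = 0.036), a call also lost by upper-quartile factors (0.055), library totals (0.060) and no filter (0.061). UHRF2, the paralog of UHRF1, fell to 87.1 and 88.7 CPM in SPNS2, against 121 and 108 CPM in NC (log2 fold change -0.38, edgeR adjusted p = 0.034). CDCA7, which recruits HELLS, was at 18.2 and 18.3 CPM in SPNS2 and 13.8 and 14.1 CPM in NC (0.39, edgeR adjusted p = 0.075, and called at 0.53 with arm medians taken out, adjusted p = 0.042), and ZBTB24, which activates CDCA7, at 22.8 and 28.1 CPM in SPNS2 and 21.8 and 30.1 CPM in NC. PCNA, the sliding clamp that DNMT1 binds, was at 302 and 304 CPM in SPNS2 and 205 and 267 CPM in NC (edgeR adjusted p = 0.13, and 0.035 without NC replicate 2). In the fits that left out 1 library at most 1 partner was called higher and 0 lower: LIG1, EHMT2 and UHRF2 were lost in each of the 4 fits (edgeR adjusted p 0.055 to 0.070, 0.109 to 0.150 and 0.057 to 0.129) and TRIM28 without NC replicate 1 or 2 (up to 0.058).

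Of 17 partners and cofactors of demethylation, 15 were tested, 2 were called higher, 0 lower and 13 neither, 13.3% called beside 23.4% of all tested genes, with a median of -0.024. At an unadjusted p under 0.05, 4 were higher and 1 lower, beside 3400 and 3371 of all 17853 tested genes. DESeq2 called 3 higher and 1 lower, and limma-voom 2 higher and 0 lower. GADD45A, a stress-induced protein that has been linked to demethylation, rose to 74.2 and 69.6 CPM in SPNS2, against 28.9 and 36.6 CPM in NC (log2 fold change 1.14, SE 0.14, edgeR adjusted p = 0.010), and was called in every fit that left out 1 library, with an edgeR adjusted p of at most 0.044. XRCC1, the scaffold of base excision repair, rose by 0.34 (edgeR adjusted p = 0.030), a call lost in each such fit (0.101 to 0.122) and with arm medians taken out (0.063). TDG, the glycosylase that acts on TET products, was at 8.02 and 7.10 CPM in SPNS2, against 10.3 and 20.3 CPM in NC. Its NC libraries differed from each other, and its log2 fold change of -1.02 (SE 0.36) did not pass the test (edgeR adjusted p = 0.12) except by DESeq2 (adjusted p = 0.038) and without NC replicate 1 (edgeR adjusted p = 0.035). IDH2, a mitochondrial enzyme that makes the TET cofactor 2-oxoglutarate, was at 27.9 and 25.8 CPM in SPNS2 and 16.5 and 20.1 CPM in NC (edgeR adjusted p = 0.059), and was called by DESeq2 (adjusted p = 0.015) and with arm medians taken out (edgeR adjusted p = 0.032). GADD45B, a paralog of GADD45A, was at 17.4 and 14.7 CPM in SPNS2 and 10.7 and 12.3 CPM in NC (edgeR adjusted p = 0.10).

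Among 13 readers of methylated or unmethylated CpG, 4 were called lower, 1 higher and 8 neither, 38.5% called against 23.4%, with a median of -0.18. ZBTB4, a zinc finger repressor that binds methylated DNA, fell to 169 and 167 CPM in SPNS2, against 237 and 231 CPM in NC (log2 fold change -0.48, SE 0.054, edgeR adjusted p = 0.0089). KDM2A, an H3K36 demethylase with a CXXC domain that binds unmethylated CpG, fell by 0.56 on the log2 scale (edgeR adjusted p = 0.010). KDM2A lies on 11q, with a median of -0.39, and with arm medians taken out it was at -0.17 (edgeR adjusted p = 0.16). KMT2B, an H3K4 methyltransferase with the same kind of domain, rose by 0.40 (edgeR adjusted p = 0.035). In the fits that left out 1 library, 0 to 3 readers were called lower: 2 without SPNS2 replicate 1, 3 without SPNS2 replicate 2, 0 without NC replicate 1 and 2 without NC replicate 2. KMT2B was lost in each of these fits (edgeR adjusted p 0.072 to 0.129), by library totals and no filter (0.051 each) and with arm medians taken out (0.066), and ZBTB4 and KDM2A only without NC replicate 1 (0.050 and 0.051).

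In the list of the other PRC2 subunits and the H3K27 demethylases, 3 of 15 were called higher, 0 lower and 12 neither, 20% called beside 23.4% of all tested genes, with a median of 0.16. At an unadjusted p under 0.05, 4 were higher and 2 lower, beside 3400 and 3371 of all 17853 tested genes. DESeq2 called 4 higher and limma-voom 3, and both called 0 lower. The core subunits SUZ12 and EED did not pass the test. SUZ12 was at 93.4 and 88.6 CPM in SPNS2 and 81.6 and 81.0 CPM in NC (edgeR adjusted p = 0.15), and EED at 26.4 and 28.2 CPM in SPNS2 and 30.0 and 29.9 CPM in NC (edgeR adjusted p = 0.38). EED lies on 11q and its log2 fold change of -0.13 became 0.26 with arm medians taken out. EZH1, the paralog of EZH2 that is also present in resting cells, was at 30.0 and 31.3 CPM in SPNS2 and 29.4 and 26.8 CPM in NC. The accessory subunits EPOP, MTF2 and JARID2 rose by 1.09, 0.52 and 0.26 on the log2 scale (edgeR adjusted p = 0.032, 0.032 and 0.047), EPOP from a low level, at 8.41 and 6.68 CPM in SPNS2 against 3.24 and 3.83 CPM in NC. Each of these 3 calls was lost in every fit with a library left out (edgeR adjusted p 0.059 to 0.124, 0.103 to 0.127 and 0.129 to 0.167). MTF2 was also lost with no filter (0.053), and JARID2 with no filter (0.086), upper-quartile factors (0.075) and library totals (0.084). With the replicate block EPOP, MTF2 and JARID2 were all lost (edgeR adjusted p = 0.086, 0.085 and 0.113). RBBP4, a histone chaperone of the core, was at 138 and 170 CPM in SPNS2 and 113 and 115 CPM in NC (edgeR adjusted p = 0.061, and 0.018 by DESeq2). The demethylases KDM6A and KDM6B were at 0.25 and -0.34 on the log2 scale (edgeR adjusted p = 0.15 and 0.12). Of 21 genes of PRC1, the complex that ubiquitinates histone H2A, 2 were called higher, 2 lower and 17 neither, 19% called beside 23.4% of all tested genes, with a median of -0.11. PHC2, a subunit that joins PRC1 units into chains, rose by 0.66 (edgeR adjusted p = 0.0050) and the E3 ligase RNF2 by 0.67 (0.035), while BMI1 and PCGF5, alternative ring finger partners of RNF2, fell by 0.75 and 0.34 on the log2 scale (edgeR adjusted p = 0.026 and 0.038). PHC2 was called with each library left out (edgeR adjusted p up to 0.035), PCGF5 in no such fit (0.089 to 0.150), BMI1 only without SPNS2 replicate 1 (0.038) and RNF2 only without NC replicate 1 (0.048). With arm medians taken out PCGF5, on 10q, was at -0.10 (edgeR adjusted p = 0.39) and RNF2, on 1q, at 0.53 (0.065), neither called, and PCGF5 was also lost with no filter (0.056).

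**Figure D4:**
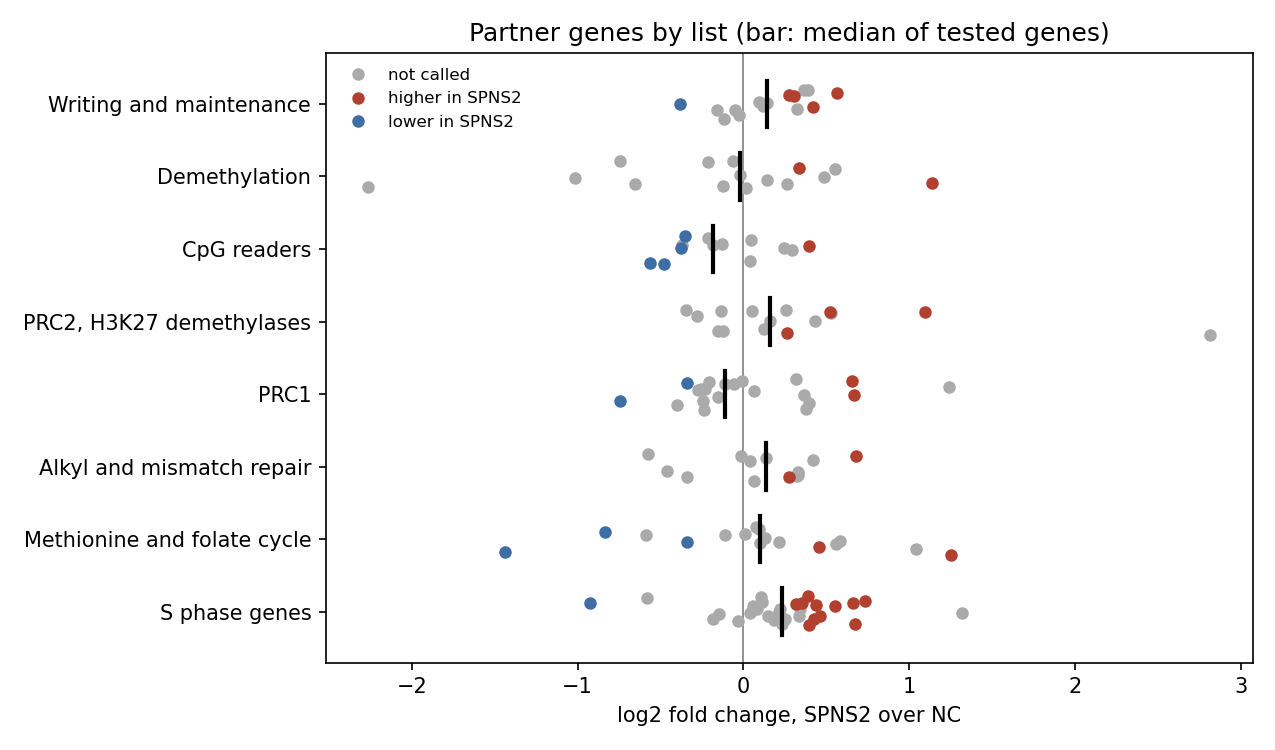
The log2 fold change, SPNS2 over NC, of each tested partner gene by list, in red where called higher, in blue where called lower and in grey where not called, with a bar at the median of the tested genes. Of the 8 lists drawn, which leave out the germline genes, S phase genes have the highest median, 0.23 with 11 of 32 called higher, and the CpG readers the lowest, -0.18 with 4 of 13 called lower.

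Of 13 genes for repair of alkylated bases and mismatches, several of which act on lesions that MGMT leaves, 2 were called higher, 0 lower and 11 neither, 15.4% called beside 23.4% of all tested genes, with a median of 0.14. At an unadjusted p under 0.05, 6 were higher and 3 lower, beside 3400 and 3371 of all 17853 tested genes. DESeq2 called 3 higher and limma-voom 2, and both called 0 lower. MLH3, a MutL subunit, and PARP1, which senses strand breaks, rose by 0.68 and 0.27 (edgeR adjusted p = 0.044 and 0.035), both lost in every fit with a library left out (0.080 to 0.146 and 0.080 to 0.143). Both were also lost by upper-quartile factors, library totals and no filter (edgeR adjusted p 0.053 to 0.065 for MLH3 and 0.054 to 0.058 for PARP1), and PARP1, on 1q with a median of 0.13, was at 0.14 with arm medians taken out (0.17). MSH6, a mismatch sensor, was at 154 and 87.2 CPM in SPNS2 and 88.0 and 155 CPM in NC, so its libraries differed more within a group than the groups did (edgeR adjusted p = 0.98). ALKBH2, a dioxygenase that reverses alkyl damage, was at 10.6 and 9.41 CPM in SPNS2 and 16.8 and 13.02 CPM in NC (log2 fold change -0.58, edgeR adjusted p = 0.094). The exonuclease EXO1 was at 48.7 and 46.0 CPM in SPNS2 and 35.9 and 39.5 CPM in NC (edgeR adjusted p = 0.075, and called by DESeq2, adjusted p = 0.049), and the MutL subunit PMS1 at 30.8 and 30.4 CPM in SPNS2 and 36.7 and 40.6 CPM in NC (edgeR adjusted p = 0.076).

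The methionine and folate cycle supplies S-adenosylmethionine, the methyl donor of DNMT and EZH2. Of its 21 genes 16 were tested, 2 were called higher, 3 lower and 11 neither, 12.5% higher and 18.8% lower beside 12.1% and 11.3% of all tested genes, with a median of 0.097. MAT2B, the regulatory subunit of methionine adenosyltransferase, rose to 112 and 108 CPM in SPNS2, against 47.9 and 44.3 CPM in NC (log2 fold change 1.25, SE 0.075, edgeR adjusted p = 0.0025), on 5q, an arm with a median of 0.43. With arm medians taken out MAT2B was called at 0.82 (edgeR adjusted p = 0.0060). The catalytic subunit MAT2A fell to 301 and 311 CPM in SPNS2, against 377 and 397 CPM in NC (-0.34, edgeR adjusted p = 0.020). MAT2A lies on 2p, with a median of -0.17, and was at -0.17 with arm medians taken out (edgeR adjusted p = 0.11). AHCY, which clears the product inhibitor S-adenosylhomocysteine, rose by 0.46 (edgeR adjusted p = 0.013). MTAP, which salvages methylthioadenosine, had no counts in any library. Leaving out 1 library, MAT2B was called in each fit (edgeR adjusted p up to 0.017) and MAT2A in none (0.061 to 0.089), and AHCY only without SPNS2 replicate 1 (0.045).

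Of 20 germline genes whose promoters are known to be methylated in somatic cells, 9 had no count in any library and 4 passed the filter on low counts. RNF17 and STK31 passed it through the SPNS2 group alone, so their values are given with no test. RNF17, a tudor-domain gene, had 353 and 390 counts in SPNS2, 11.5 and 11.7 CPM, and none in NC. STK31 was at 1.46 and 0.779 CPM in SPNS2, against 0.125 and 0.119 CPM in NC. PIWIL2 and PIWIL4, of the piRNA pathway, lay between 0.178 and 0.654 CPM in all libraries and were not called. DAZL, DDX4, MAEL, SYCP1 and SYCP3 lay between 0 and 0.26 CPM in every library.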

How the data were processed

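The authors deposited unnormalized counts, 1 whole number for each Ensembl gene and library. The submitters' processing notes name hg38 as build and HISAT2 2.2.1, featureCounts 0.3 and Trim Galore 0.6.9 as tools. No source used here gives the annotation release, the strandedness of counting or the rule for multiply mapped reads, so overlapping genes and copies may share reads. Of the 61806 genes plus 1 row of annotation text, the text row was dropped.

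Genes were kept by filterByExpr (minimum count 10, minimum total 15), leaving 17853. After TMM scaling, edgeR 4.0.16 in R 4.3.3 tested SPNS2 against NC (quasi-likelihood, two-sided), with no covariate and Benjamini-Hochberg adjustment over all tested genes. The SE is the size of the log2 fold change over the root of F. Intervals of 95% use the degrees of freedom of that test. CPM are TMM-scaled. Per-length levels divide CPM by the union exon length of GENCODE 29 on GRCh38, the assembly of hg38, which also gave positions and arms (divided at approximate centromeres). Promoter sequences are from RefSeq on GRCh38.p14. The test was checked on simulated counts, where it called 3 of 50 genes changed 1.5-fold and 19 of 50 changed 2-fold. Of its 111 calls there 5 were false. The data held 4171 calls, so these shares need not hold for them. A gene that was not called is not shown to be unchanged. Alternatives were DESeq2 1.42.0, limma-voom (limma 3.58.1), a robust fit, other scaling, other filters, the replicate number as a block, arm medians taken out, and each library left out. With a library left out, the lone library of a group is assumed to vary like the others.

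The members, the gene lists and the alternatives were chosen with earlier results of these data known. The genes named are the members, 15 partners fixed by name, and up to 4 tested genes with the smallest p of each list, some of which are not reported here. Lists are described by counts and medians, with no set test. No single value of 2 libraries against 2 can reach an exact permutation p below 0.333.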

Additional observations from a re-analysis of the deposited data

How the results depend on the processing

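TET2 was called lower in all 14 alternatives (log2 fold change -0.96 to -0.58, adjusted p 2.6e-08 to 0.048), TET3 in 8 of 14 and TET1 in 1, and the direction of 9 members held throughout. Of all genes, 2161 were called higher and 2010 lower, with 1039 and 937 under the replicate block and, with a library left out, 950 to 1093 and 762 to 1051. Of the members, 0 were higher and 2 lower. With arm medians removed 1 was higher (HELLS) and 1 lower, with the replicate block 1 was lower, and with a library left out 0 to 0 were higher and 1 to 1 lower. The replicate numbers share no stated origin: replicate 1 minus replicate 2 had a correlation of -0.06 between the groups over genes, and the block lost the call of TET3 among the members. Outside the members the block lost the calls of MCM4, LIG1, EHMT2, UHRF2, XRCC1, KMT2B, EPOP, MTF2 and JARID2. Those of BMI1, RNF2, PCGF5, PARP1, MLH3 and MAT2A were lost with it as well (edgeR adjusted p 0.051 to 0.113 over these genes). Signs reversed with arm medians removed for ZBTB24 (0.13), EED (0.26), MSH6 (0.16) and PIWIL4 (0.28), and by limma-voom for PIWIL4 (0.023). They also reversed within the fits that left out 1 library, which ranged from -0.11 to 0.057 for DNMT3B, -0.24 to 0.22 for ZBTB24, -0.46 to 0.45 for MSH6, -0.54 to 1.34 for PIWIL2 and -0.64 to 0.74 for PIWIL4. None of these was called, and the cause was not tested. Leaving out a library cut the calls over all genes as well, through fewer samples. Counts of TET1 (43 to 171) and MGMT (94 to 150) limit what these libraries can show for them.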
